A study of Saccharomyces cerevisiae with 48 samples.

Results

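The West African strain WA (NCY3290 in the labels) of Saccharomyces cerevisiae was set against PAP (Y7568) and IL01 during growth without oxygen. The comparison used 18 of the 48 libraries of the series, 6 from WA, 6 from PAP and 6 from IL01, chosen as the anaerobic cultures in YPD, in 0.8% 1-butanol and in 1% isobutanol, with 2 replicates of each strain in each medium. YPD is rich glucose medium, and the alcohols were added to it. Cultures were started at an optical density of 0.01 and collected at 0.5 according to the labels. WA came from bili wine, PAP is a mosaic strain from papaya and IL01 a mosaic strain from Illinois soil, so each group is 1 natural isolate that differs from the others at many loci, and the difference is one between isolates and not between populations. Nothing in the labels says which replicates came from separate starter cultures, but the methods give different days. The p-values measure the spread between replicates of a strain and medium, pooled over strains and media. A shared difference between replicates 1 and 2 was taken out first. They do not measure a spread between isolates of a population.

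Yeast needs molecular oxygen to make ergosterol, unsaturated fatty acids and heme, and under anaerobiosis it switches on genes for sterol uptake, for the DAN/TIR cell wall mannoproteins and for the large subtelomeric PAU (seripauperin) family. Many genes near chromosome ends, among them those for maltose use, iron-siderophore uptake and flocculation, differ in presence and copy number between natural isolates. Reads were aligned to the laboratory strain S288c, so a gene that WA lacks or carries in a diverged form is listed at a low value or at 0 whatever the cells transcribe. Absence from the genome and absence of the transcript cannot be told apart here.

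The 6 anaerobic ethanol libraries were left out because the WA ones lacked the marks of that strain named next. OPT2 had 0.0429 and 0.0406 RPKM (reads per kilobase of gene, scaled to library depth) in the WA-labelled anaerobic ethanol libraries, against 31.7 to 57.9 in the 6 WA libraries used here. SNZ3 was listed at 0 in both ethanol libraries and at 14.3 to 32.6 RPKM in the 6. ARN2 had 6.12 and 7.58 RPKM and CSS3 13.8 and 17.2 RPKM in the ethanol libraries, while both genes were listed at 0 in all 6 others. Some other marks of WA were kept. COS5 had 0.784 and 0.186 RPKM in the ethanol libraries labelled WA, against 5.57 to 26.8 in those of PAP and IL01. ECM34 had 54.4 and 56.7 RPKM, against 0.901 to 40.4. Among the 261 genes for which the 6 WA libraries lay wholly to one side of the 12 others, 42.1% and 24.1% lay on the WA side in the ethanol libraries labelled WA, against 72.8% to 84.7% in the 8 aerobic WA libraries and 9.58% to 28.7% in the anaerobic ethanol libraries of PAP and IL01. The 8 aerobic WA libraries, ethanol included, kept ARN2 at 0.111 RPKM or below and OPT2 at 17.3 or above. The ethanol dose was lower in the anaerobic cultures than in the aerobic ones, so the aerobic ethanol libraries differ from them in dose as well as in oxygen.

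The reads behind the scaling ran from 7480288 to 12257071 per library. Replicates correlated at 0.934 to 0.990 over genes, lowest in IL01 isobutanol, where replicate 1 had 2315 RPKM of SED1 and 167 of HSP12 and replicate 2 had 61.8 and 3.92. In 3 libraries, WA 1-butanol replicate 1, WA isobutanol replicate 1 and PAP YPD replicate 2, between 55.6% and 66.5% of reads fell in genes, against 77.5% to 84.5% in the rest. With these 3 left out, an alternative added after seeing the data, 1800 genes were called, but only 1444 of the 1821 calls with them were among these. Several list counts below moved too, and some but not all of these moves are given beside them.

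A gene was called when its WA difference, averaged over the 3 media, had a Benjamini-Hochberg adjusted p under 1% in limma and kept its sign in each medium. Of 5696 genes tested, 1821 were called, which is 32%. On the deposited scale 501 of them (8.8%) were higher and 1320 (23.2%) lower in WA. The median of all genes lay at -0.21 on the log2 scale, so the split by direction depended on the scale: centring each library on its median gave 1114 higher and 809 lower, and quantile normalization 1015 and 908. Called the same way on all 3 scales were 496 genes higher (8.71%) and 789 lower (13.9%). Some of the counts by gene list below give that number too. Each list count is to be read beside the shares of all genes, 8.8% higher and 23.2% lower. The median shift was -0.06 in YPD, -0.31 in 1-butanol and -0.26 in isobutanol.

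Tested against each strain alone, 814 genes (14.3%) differed from both PAP and IL01 in the same direction, 248 higher (4.35%) and 566 lower (9.94%). For 103 genes (1.81%) all 6 WA libraries lay above the 12 others, and for 158 (2.77%) all 6 lay below. A change of at least 2-fold was seen in 188 of the genes called higher and 265 of those called lower. In each single medium 377 genes (6.62%) were called in YPD, 743 (13%) in 1-butanol and 608 (10.7%) in isobutanol, and 209 passed in all 3 with one sign, 109 of them higher and 100 lower in WA.

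**Figure D1:**
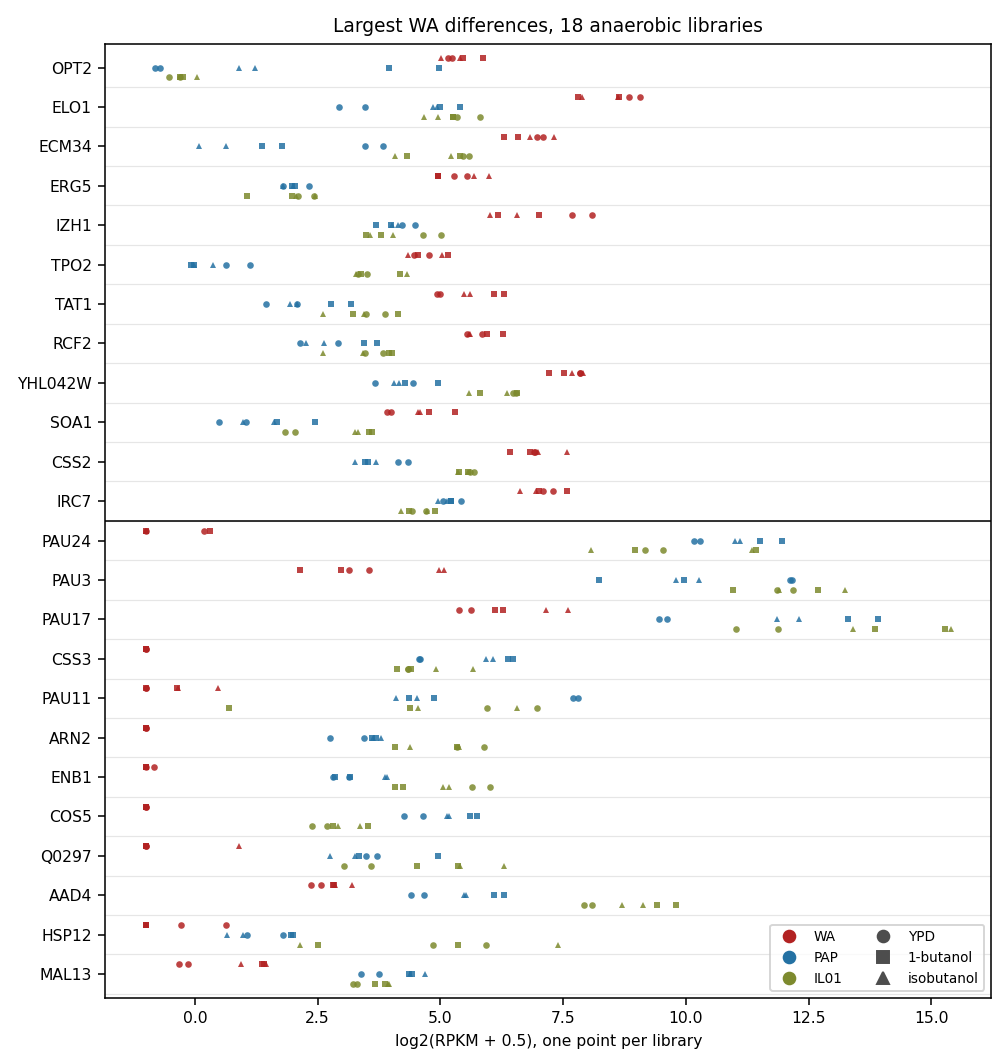
Level of the 12 genes with the largest increase (above the line) and the 12 with the largest decrease in WA, on the log2(RPKM + 0.5) scale, with one point for each of the 18 anaerobic libraries, WA drawn above PAP and IL01 in each row and media as symbols. The 6 WA points lie to one side of the 12 others in every row, which was part of the rule that chose these genes, and for CSS3, ARN2 and COS5 all 6 sit at the floor of -1, where a gene is listed at 0. CSS3, ARN2 and COS5 passed the filter on low values only through PAP and IL01.

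The largest increase among well-measured genes was in OPT2, an oligopeptide transporter family gene. OPT2 had 31.7, 39.7 and 57.9 RPKM as lowest, median and highest value in WA, against 0.0664, 0.329 and 31.0 RPKM in PAP and IL01. The groups did not overlap, but PAP in 1-butanol reached 15.1 and 31.0 RPKM, close to the lowest WA library. The difference was 4.70 ± 0.16 on the log2 scale (SE, adjusted p = 4.3e-13 in limma), at 5.79 in YPD, 3.57 in 1-butanol and 4.74 in isobutanol.

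ELO1, which encodes a fatty acid elongase, had 222, 393 and 535 RPKM in WA, against 7.13, 30.9 and 55.1 RPKM in PAP and IL01, a difference of 3.65 ± 0.14 (adjusted p = 1.8e-12 in limma). IZH1, a membrane protein gene of the zinc regulon, had 64.4, 112 and 272 RPKM in WA, against 10.6, 15.8 and 31.8 RPKM in the others. For both genes the highest WA libraries were the 2 in YPD and no library of another strain came within the WA range. Beside IZH1, the zinc transporter gene ZRT1 averaged 51.5 ± 10.5 RPKM in WA, against 14.1 ± 3.77 in PAP and 24.2 ± 26.9 in IL01 (SD, n = 6 each). Of the 13 genes of the zinc regulon tested 4 were higher and 1, VEL1, lower (8.8% and 23.2% of all genes).

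Transport genes were among the other large increases. TPO2, a polyamine exporter, had 19.8, 24.8 and 35.2 RPKM in WA, against 0.453, 5.43 and 19.4 in PAP and IL01. TAT1, a permease for tyrosine and the branched-chain amino acids, had 30.1, 46.1 and 77.6 RPKM in WA, against 2.21, 7.42 and 17.1. SOA1, a transporter of sulfur compounds, had 14.6, 23.1 and 38.6 RPKM in WA, against 0.913, 3.34 and 11.7. No value of these 3 genes in WA was reached by another strain, and PAP was the lowest strain for each by its mean.

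The other increases by the same rule were in RCF2, a respiratory supercomplex factor (2.60 ± 0.15), IRC7, a beta-lyase acting on cysteine conjugates (2.23 ± 0.13), ECM34 (3.41 ± 0.18), its neighbour YHL042W (2.43 ± 0.14) and CSS2 (2.31 ± 0.11), all on the log2 scale with SE. Of the 18 amino acid permease genes tested, 6 were higher and 3 lower (8.8% and 23.2% of all genes), and on all 3 scales 6 and 1. Without the 3 libraries of low share in genes 7 were higher and 1 lower. MMP1, a permease for S-methylmethionine, averaged 55.0 ± 28.9 RPKM in WA, against 14.7 ± 5.05 in PAP and 5.51 ± 2.48 in IL01 (SD, n = 6 each). AGP3 had 14.3 to 27.3 RPKM in WA and 4.07 to 13.3 in the others, without overlap.

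SNZ3, a pyridoxine synthesis gene that stayed below the level floor of the first rule, had 14.3, 18 and 32.6 RPKM in WA, against 0, 0 and 0.104 RPKM in PAP and IL01. Only 36.8% of its 100-base windows occur once in the reference genome, so part of its reads cannot be placed with certainty. SNO2 had 2.0, 3.28 and 4.88 RPKM in WA, against 0, 0.132 and 0.278 in the others, and only 23.5% of its windows are unique. THI7, the thiamine transporter gene, had 30.0, 37.2 and 150 RPKM in WA, against 8.08, 12.3 and 19.4, with the WA YPD libraries highest, and THI13 went the other way (-1.90 ± 0.18). Of the 21 tested genes for thiamine, pyridoxine and biotin, 4 were higher and 5 lower (8.8% and 23.2% of all genes), and 4 and 2 on all 3 scales. The count was 4 and 3 without the 3 libraries of low share in genes. SNZ3 and SNO2 were tested only through their level in WA, so a higher value was built into their selection.

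**Figure D2:**
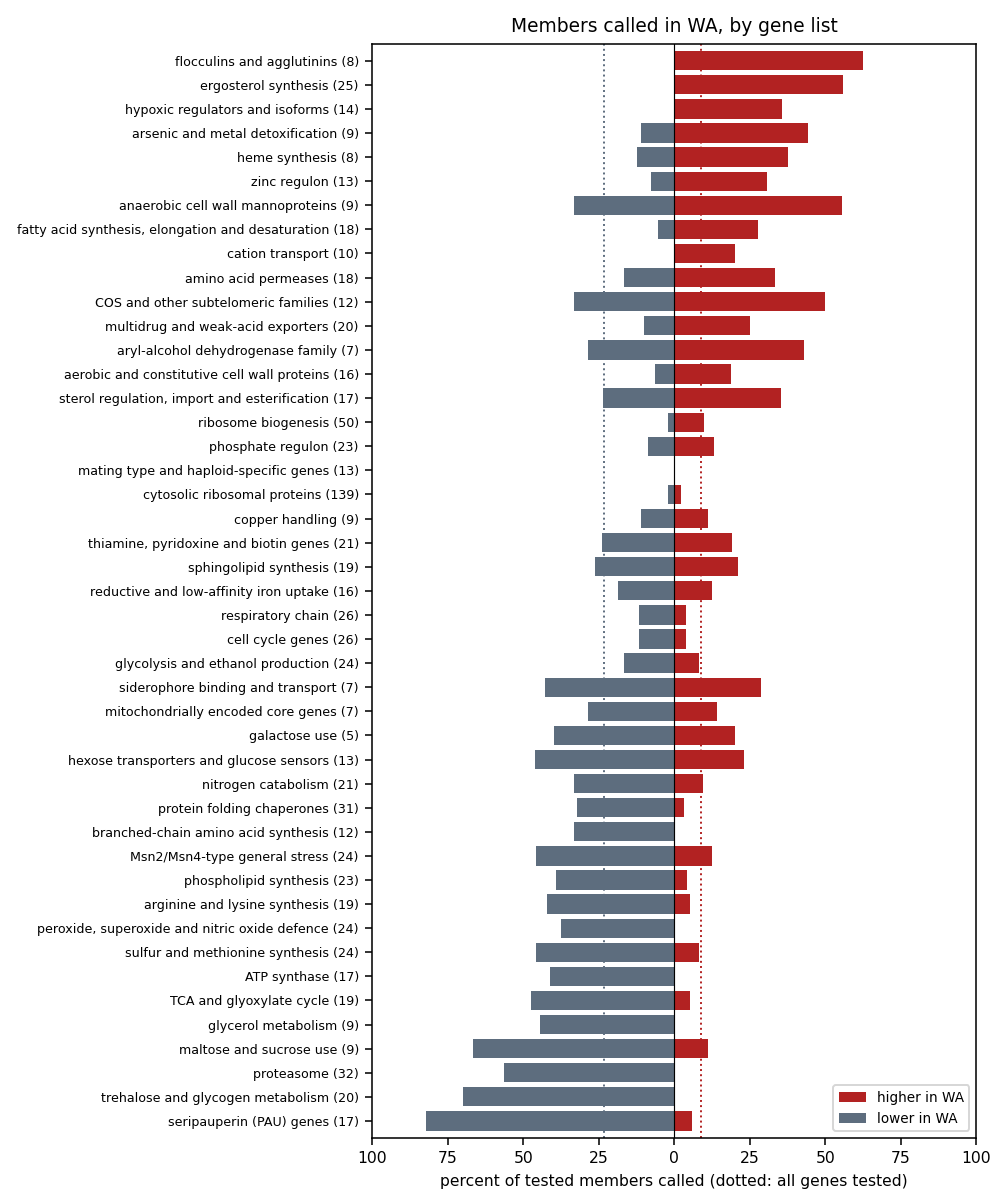
Percent of the tested members of each gene list that were called higher (right) or lower (left) in WA across the 3 anaerobic media, with the number of tested members in brackets and dotted lines at the share of all genes (8.8% higher, 23.2% lower). Flocculins and ergosterol synthesis reach furthest to the right, and the PAU family, trehalose and glycogen metabolism, maltose and sucrose use and the proteasome furthest to the left.

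Ergosterol is the main sterol of the yeast membrane, and its synthesis runs from acetyl-CoA through mevalonate and squalene to late steps that consume oxygen. Of the 25 genes of the pathway, 14 were called higher and 0 lower in WA (8.8% and 23.2% of all genes), the same 14 genes on all 3 scales, and 12 of them differed from PAP and IL01 alike. The median of the list was 0.75 on the log2 scale, 0.96 above that of all genes, with 0.84 in YPD, 0.56 in 1-butanol and 0.67 in isobutanol. Leaving out IL01 isobutanol replicate 2 left the count at 14.

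ERG5, the C-22 sterol desaturase, had 30.3, 42.4 and 62.7 RPKM in WA, against 1.60, 3.55 and 4.97 RPKM in PAP and IL01. The WA libraries lay above every other in each medium, and the difference was 3.4 ± 0.15 on the log2 scale (SE, adjusted p = 1.8e-11 in limma). HMG1, an HMG-CoA reductase at the head of the pathway, had 12.1, 17.4 and 21.3 RPKM in WA, against 1.88, 4.43 and 9.26 RPKM, also without overlap. Its paralogue HMG2 averaged 199 RPKM in WA, against 163 in PAP and 173 in IL01, and was not called.

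ERG3, the C-5 sterol desaturase, had 169, 359 and 540 RPKM in WA, against 54.1, 72.3 and 298 RPKM in PAP and IL01. Here the groups overlapped, since the 2 WA libraries in 1-butanol were below the IL01 libraries in YPD, although within each medium WA was highest. NCP1, the reductase that passes electrons to the pathway's cytochrome P450 enzymes, had 380, 466 and 700 RPKM in WA, against 86.7, 171 and 289 RPKM, without overlap. The oxygen-using steps ERG1 (1.28 ± 0.12), ERG11 (1.25 ± 0.12), ERG25 (1.51 ± 0.14), ERG3 (1.71 ± 0.12) and ERG5 were each called higher, while ERG9, the squalene synthase before them, differed by 0.02 ± 0.12 on the log2 scale and was not called. ERG20 differed by -0.42 ± 0.12 but was not of one sign, at 0.03 in YPD.

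The sterol regulatory element TCGTATA, searched on both strands, is the site read by the activators Upc2 and Ecm22. It occurred within 500 bases before the start of 9 of the 25 pathway genes (36%) and of 6 of the 14 called, against 6.99% of the 5467 promoters of tested genes. The share was 11.7% among all genes called higher and 8.11% among those called lower. The windows below are from the S288c genome in RefSeq (build R64), since the genomes of the 3 strains were not read, and are shown because they carry the element in front of genes that were higher in WA. They read 5′ to 3′ on the strand of the gene, with the element in capitals.
ERG3 (chrXII:253561-253595, gene on the + strand): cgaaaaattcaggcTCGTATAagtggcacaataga
ERG2 (chrXIII:667338-667372, + strand): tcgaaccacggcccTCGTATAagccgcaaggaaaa
ERG25 (chrVII:610067-610101, + strand): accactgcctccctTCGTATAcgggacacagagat
ERG1 (chrVII:848785-848819, gene on the - strand): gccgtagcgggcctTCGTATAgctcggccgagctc

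The 4 windows share the element and differ around it, and in ERG5, with the largest difference of the pathway, the letters do not occur in the 500 bases examined.

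**Figure D3:**
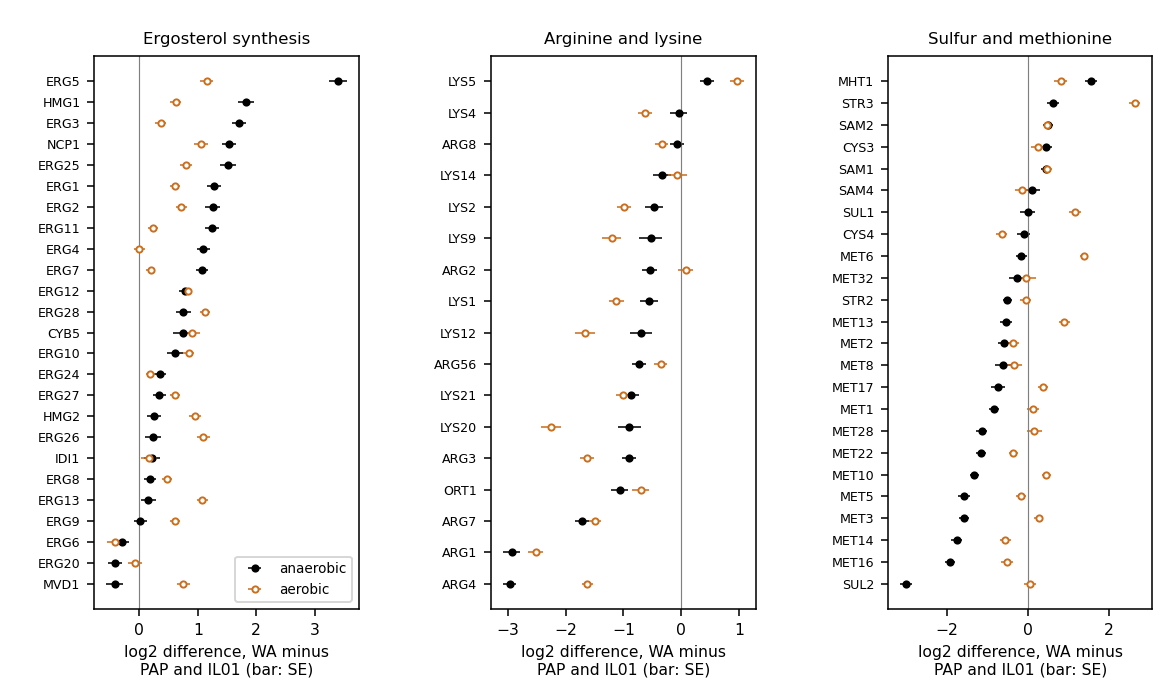
WA difference of tested genes in 3 pathways on the log2 scale, WA minus the mean of PAP and IL01, averaged over YPD, 1-butanol and isobutanol, without oxygen (filled) and with oxygen (open), with bars of 1 SE. Late ergosterol genes are further right without oxygen (ERG5 at 3.4 against 1.16), ARG1 is low in both (-2.93 and -2.52), and SUL2 is low only in the anaerobic value (-3.0 and 0.05).

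Other lipid genes divided by branch. Of 18 tested genes for fatty acid synthesis, elongation and desaturation, 5 were higher and 1 lower, and on all 3 scales 5 and 0. SCS7, which hydroxylates the fatty acid of ceramides and also uses oxygen, had 37.6, 55.6 and 72.3 RPKM in WA, against 6.51, 16.0 and 29.5 RPKM in PAP and IL01, without overlap (1.75 ± 0.11). OLE1, the fatty acid desaturase, averaged 6414 RPKM in WA, against 5094 in PAP and 5238 in IL01, and was not called.

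Of 23 phospholipid synthesis genes 9 were lower and 1 higher (23.2% and 8.8% of all genes), and 7 and 2 without the 3 libraries of low share in genes. The list median of -0.18 was 0.03 above that of all genes. INO1, which makes inositol phosphate, had 6.34, 8.97 and 170 RPKM in WA, against 7.94, 131 and 1305 RPKM in PAP and IL01 (-2.12 ± 0.38, adjusted p = 2.6e-04 in limma). The groups overlapped in part because levels followed the medium: in YPD WA had 6.34 and 6.69 RPKM, against 7.94 to 14.6 RPKM in the others. In 1-butanol they overlapped within the medium. WA had 152 and 170 RPKM there, IL01 replicate 2 had 131, and the remaining libraries had 520 to 609. In isobutanol WA had 8.47 and 9.47 RPKM, against 66.8 to 1305 RPKM in the 4 others. INO2 (-1.31 ± 0.16) and INO4 (-1.30 ± 0.18), which encode the activator pair of these genes, and PAH1, the phosphatidate phosphatase (-1.03 ± 0.12), were lower too. All 9 lower genes differed from both strains, and 8 were lower on all 3 scales.

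The core of the Ino2-Ino4 site, CATGTGAA (TTCACATG on the other strand), was found in front of 10 of the 23 phospholipid genes and 7 of the 10 called, against 1.44% of all promoters. Among all genes called lower the share was 2.03%, and among those called higher 1.28%. CPT1, with the site, was higher in WA. INO1 holds the site on both strands, and both windows are given, again on the strand of the gene with the site in capitals.
INO1, 243 bases before the gene (chrX:136155-136190, - strand): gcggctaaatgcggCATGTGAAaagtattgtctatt
INO1, 180 bases before the gene (chrX:136092-136127): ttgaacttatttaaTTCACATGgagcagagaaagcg
INO2 (chrIV:699591-699626, - strand): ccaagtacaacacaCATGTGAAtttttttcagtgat

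The PAU family held the largest decreases. The 24 genes, small cell wall proteins induced without oxygen, summed to 517, 1147 and 3616 RPKM as lowest, median and highest WA library, against 12455, 14992 and 37350 RPKM in PAP and 19043, 30005 and 104410 RPKM in IL01. No WA library reached the lowest of the others. Of the 17 members that passed the filter on low values, 14 were lower and 1, PAU4, higher in WA, and on all 3 scales 13 and 1. Without the 3 libraries of low share in genes 11 were lower and 1 higher. PAU9, PAU10, PAU11 and PAU24 averaged under 1 RPKM in WA and passed the filter only through another strain, so a lower value in WA was built into their selection and the count is a description. The other 7 members had a mean under 1 RPKM, and 6 of these, PAU1, PAU6, PAU14, PAU18, PAU21 and PAU22, were listed at 0 in every library and have no 100-base window that is unique in the reference.

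PAU24 had 0, 0 and 0.737 RPKM in WA, against 269, 1653 and 3954 RPKM in PAP and IL01, and 75.8% of its windows are unique. PAU3 had 3.92, 9.73 and 33.1 RPKM in WA, against 301, 3776 and 9747 RPKM (84.1% unique), and PAU17, all of whose windows are unique, had 41.1, 73.1 and 193 RPKM against 696, 7602 and 43183 RPKM. PAU11 had 0, 0.136 and 0.883 RPKM in WA, against 1.12, 25.9 and 224 RPKM. The WA and other libraries did not overlap for these 4, and the fitted differences were -10.96 ± 0.35, -7.64 ± 0.20, -6.25 ± 0.22 and -5.75 ± 0.34 in the order of the genes above. For PAU24 and PAU11, at or near 0 in WA, the fitted value depends on the pseudocount and is no bound.

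Not every member followed the strain split in the same manner. PAU9 was listed at 0 in all 6 WA libraries, at 584 to 4559 RPKM in PAP and at 0 to 0.714 RPKM in IL01, so that PAP alone stood out. But 0% of the PAU9 windows are unique in the reference, so its reads cannot be assigned to it alone. PAU10, PAU13 and PAU15 were high in IL01 only, with means of 8.72, 384 and 395 RPKM there, against 0.0982, 1.48 and 3.82 RPKM in WA and 0.0402, 0.417 and 1.65 in PAP. Only 39.0%, 45.1% and 29.7% of their windows are unique, so part of their reads cannot be placed with certainty. A lower value of such a gene in WA is therefore a difference from 1 strain, and 8 of the 14 lower members differed from both. PAU4, the member called higher, averaged 8.74 RPKM in WA, 12.2 in PAP and 0.479 in IL01, so by its means WA lay above IL01 and below PAP.

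**Figure D4:**
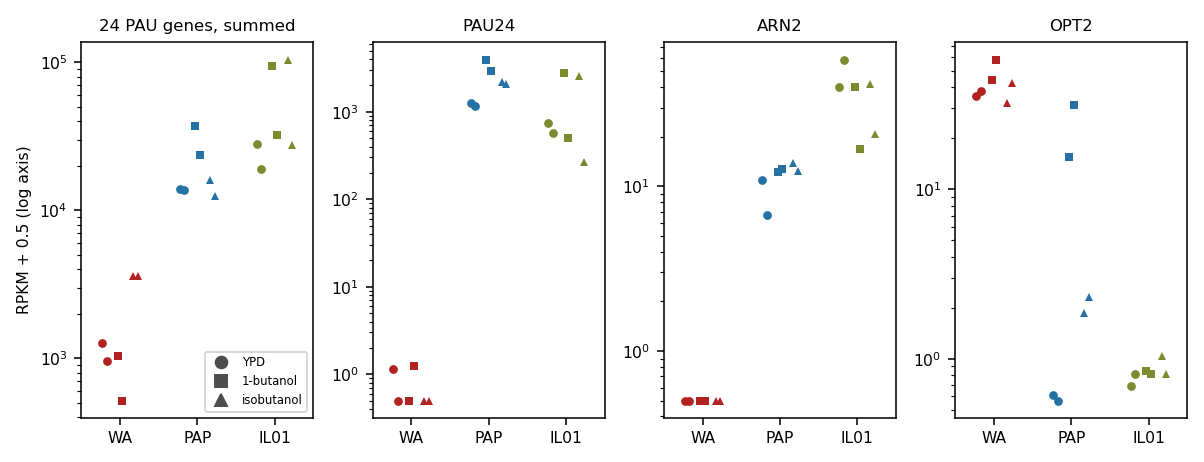
Summed RPKM of the 24 PAU genes and RPKM of PAU24, ARN2 and OPT2 in each of the 18 anaerobic libraries by strain, WA at the left, on log axes with 0.5 added, and media as symbols. WA lies below every other library for the PAU sum, PAU24 and ARN2, and above every other for OPT2, where the 2 PAP libraries in 1-butanol come closest.

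Of 9 anaerobic mannoprotein genes tested, 5 were higher (TIP1, DAN1, TIR1, TIR3 and TIR4) and 3 lower. The lower ones were TIR2 and PAU23 and PAU24, which are also counted in the PAU family. TIP1 had 316, 647 and 1686 RPKM in WA, against 23.4, 145 and 653 RPKM in PAP and IL01 (2.38 ± 0.27), and DAN1 averaged 4191 RPKM in WA, against 2025 in PAP and 2556 in IL01. CCW12, a major structural wall protein gene, had 3882 to 8126 RPKM in WA, against 1331 to 3914 in the others. SED1, a wall protein gene of stressed and stationary cells, had 20.6, 31.5 and 90.2 RPKM in WA, against 53.6, 483 and 3057 RPKM (-3.18 ± 0.45), with overlap through PAP in YPD and isobutanol and IL01 isobutanol replicate 2.

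Flocculins, which stick cells to each other and to surfaces, were higher in 5 of 8 cases and lower in 0, and higher in 3 without the 3 libraries of low share in genes. FLO11 had 7.50, 9.03 and 13.5 RPKM in WA, against 0.596, 1.24 and 2.46 RPKM in PAP and IL01. FLO9 had 3.37, 5.26 and 7.40 RPKM in WA, against 0, 0.319 and 1.21 RPKM, with 53.8% of its windows unique in the reference. Neither gene overlapped between the groups. FLO9 passed the filter on low values mainly through WA, so a higher value was built into its selection.

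ARN2, a transporter of iron bound to triacetylfusarinine C, was listed at 0 in all 6 WA libraries, against 6.25, 14.9 and 58.5 RPKM in PAP and IL01, or 0 reads against 5057. With a floor of 3 reads over the group, ARN2 was at least 751-fold lower. ENB1, the enterobactin transporter gene, had 1 read in the 6 WA libraries and 4941 in the 12 others, a ratio of 2202 with a 95% counting interval of 395 to 86979 (exact binomial), which covers counting error only. All 100-base windows of both genes are unique. ARN2 and ENB1 passed the filter on low values only through the other strains, so a lower value was built into their selection.

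CSS3, the neighbour of ENB1 on chromosome XV (chrXV:17281-21311 for the pair in R64), had 0 reads in WA and 2687 in PAP and IL01, at least 399-fold lower. A lower value was built into its selection in the same way. Of 5460 pairs of neighbouring tested genes, 21 had the WA libraries of both genes wholly on the same side of the others. CSS3 and ENB1 are among the 19 runs of adjacent genes that such pairs formed, 13 of them higher and 6 lower. Others were IMA1, MAL13 and MAL11 (chrVII:1067222-1075813) and DOG2 and DOG1 (chrVIII:192805-194808) on the lower side, and OPT2 with YPR195C (chrXVI:924304-928294), ARR2 with ARR3 (chrXVI:939279-941136), ECM34 with YHL042W (chrVIII:14901-16119) and SRB2 with NCP1 (chrVIII:189131-192618) on the higher side. SRB2 and NCP1 are followed directly on the chromosome by DOG2 and DOG1, so a higher pair and a lower pair adjoin.

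ARN2, ENB1 and CSS3 lie near chromosome ends, and so did many of the larger differences. Of all nuclear genes tested with a position, 3.67% lay within 25 kb of an end. The share was 23.8% among the 168 called at least 2-fold higher and 17.2% among the 239 called at least 2-fold lower, and 7 of 11 and 16 of 24 among those past 8-fold.

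The other siderophore genes did not follow. FIT1 and FIT3, cell wall mannoproteins that hold siderophore iron, were higher (1.17 ± 0.19 and 0.79 ± 0.22), although FIT3 kept its call with 8 of the 18 single libraries left out. ARN1 (0.28 ± 0.14) and FIT2 (0.66 ± 0.29) were not called. SIT1 was called lower on the deposited scale (-0.66) but not on all 3. FRE1, a metal reductase gene, had 7.63 to 14.6 RPKM in WA, against 2.42 to 9.77.

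Maltose genes were lower in 6 of 9 cases and higher in 1, and on all 3 scales in 5 and 1. MAL11, at 0 in WA, passed the filter on low values only through the other strains, so a lower value was built into its selection. MAL11, a maltose transporter gene, had 0 reads in WA and 1408 in the others, at least 209-fold lower, with 1.84 to 9.83 RPKM in PAP and IL01. MAL13, the regulator of the same cluster, had 0.301, 1.76 and 2.24 RPKM in WA, against 8.79, 14.5 and 25.4 RPKM. IMA1, an isomaltase gene beside it, had 1.69, 2.31 and 4.12 RPKM in WA, against 8.45, 25.9 and 32.9 RPKM. The WA values of these 3 genes lay below all others. IMA5, an isomaltase gene elsewhere in the genome, had 5.02 to 6.83 RPKM in WA, against 0.111 to 8.58 in the others, and was higher through PAP, which averaged 0.271 RPKM.

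COS5, of a subtelomeric membrane protein family, had 0 reads in WA against 3173, at least 471-fold lower, though only 42.4% of its windows are unique. COS3 was at least 121-fold lower as listed, but 0% of its windows are unique, so its reads cannot be assigned to it alone. In the same list of subtelomeric families 6 of 12 were higher and 4 lower. COS5 and COS3 had 0 reads in WA and passed the filter on low values only through the other strains, so a lower value was built into their selection. Among the aryl-alcohol dehydrogenase genes AAD4 had 4.65, 6.60 and 8.75 RPKM in WA, against 20.7, 160 and 888 RPKM, while AAD15 had 8.42, 12.9 and 17.6 RPKM against 0, 1.62 and 7.89, with every PAP library at 0. ARR2 and ARR3, of the arsenic resistance cluster, averaged 11.9 and 4.97 RPKM in WA, against 5.85 and 0.882 in PAP and 0.162 and 0.210 in IL01. ARR3 passed the filter on low values only through WA, so a higher value was built into its selection.

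Genes of the mitochondrial genome were mixed. ATP8, a subunit of the ATP synthase, had 3.49, 9.48 and 27.0 RPKM in WA, against 0, 0.871 and 4.33 RPKM, and OLI1, another, had 178, 205 and 321 RPKM against 627, 849 and 1510 RPKM without overlap. COX3, a cytochrome c oxidase subunit, averaged 142 RPKM in WA, 99.4 in PAP and 901 in IL01, so by its means WA lay below IL01 and above PAP. The open reading frame Q0297 had 0 to 1.37 RPKM in WA and 6.21 to 78.4 in the others. It passed the filter on low values only through the other strains, so a lower value was built into its selection. Of 17 ATP synthase genes 7 were lower and 0 higher (23.2% and 8.8% of all genes), and 6 and 0 on all 3 scales. STF1, an inhibitor of the enzyme, had 18.3 to 53.2 RPKM in WA and 54.5 to 273 in the others.

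Of 19 genes for arginine and lysine, 8 were lower and 1, LYS5, higher, 7 and 1 on all 3 scales. ARG4, the argininosuccinate lyase, had 18.6, 32.6 and 44.8 RPKM in WA, against 91.4, 319 and 483 RPKM in PAP and IL01 (-2.97 ± 0.11, adjusted p = 2.7e-12 in limma). ARG1, the step before it, had 25.3, 97.3 and 152 RPKM in WA, against 307, 667 and 1325 RPKM.

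For ARG1, ARG4, ARG7 and ORT1 the WA libraries lay below all the others. HIS4, a histidine synthesis enzyme, had 29.8, 38.1 and 119 RPKM in WA, against 132, 234 and 639 RPKM. LYS20, LYS4 and LYS9 were not called.

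Gcn4, the general activator of amino acid synthesis, reads the letters TGACTC, searched on both strands. They occurred in front of 14 of the 19 arginine and lysine genes (73.7%) and 7 of the 9 called, against 13.2% of all promoters. Among all genes called lower the share was 15.4%, and among those called higher 10.4%, so the contrast is one of the list and not of the WA call. Shown are windows of ARG4 and ARG1, described above, on the strand of the gene with the motif in capitals.
ARG4 (chrVIII:141562-141595, - strand): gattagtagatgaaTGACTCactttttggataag
ARG1 (chrXV:218852-218885, + strand): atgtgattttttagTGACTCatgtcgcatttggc

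Sulfate assimilation brings sulfate through SUL1 and SUL2 and reduces it to sulfide for cysteine and methionine. Of the 24 genes of this list, 11 were lower and 2, SAM2 and MHT1, higher in WA, and on all 3 scales 9 and 2. SUL2, a high-affinity sulfate permease gene, had 2.99, 6.35 and 18.5 RPKM in WA, against 21.4, 66.2 and 126 RPKM in PAP and IL01, without overlap (-3.0 ± 0.15). Its difference was -1.51 in YPD, -4.08 in 1-butanol and -3.41 in isobutanol, which differed between media (adjusted p = 0.0034 in limma).

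MET16 (10.2, 20.3 and 34.8 RPKM in WA, against 36, 65.7 and 146 RPKM) and MET14 (21.9, 61.5 and 143 RPKM in WA, against 77.4, 210 and 377 RPKM) encode the enzymes that activate and reduce sulfate. MET14 overlapped because the WA libraries in YPD were above those of IL01 in the alcohols, and its difference also changed between media (-0.66, -3.08 and -1.51 in YPD, 1-butanol and isobutanol, adjusted p = 0.0020). The median of the list was 0.15 in YPD, -1.05 in 1-butanol and -0.66 in isobutanol. The other permease gene, SUL1, was not called (adjusted p = 0.99 in limma). SSU1, the sulfite exporter gene, had 7.07 to 15.1 RPKM in WA, against 8.5 to 128 RPKM.

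Cbf1, which recruits the activators of this pathway, binds CACGTG, a palindrome that reads the same on both strands. The letters stood in front of 17 of the 24 genes (70.8%) and 10 of the 13 called, SAM2 (higher) among them, against 6.33% of all promoters. Among all genes called lower the share was 7.25%, and among those called higher 6.18%. The windows of MET16 and MET14 follow, with the motif in capitals.
MET16 (chrXVI:877791-877824, - strand): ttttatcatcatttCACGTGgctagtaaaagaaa
MET14 (chrXI:439594-439627, - strand): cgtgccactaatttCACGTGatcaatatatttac

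Stores of carbohydrate and stress proteins are under the activators Msn2 and Msn4. Of 20 genes for trehalose and glycogen, 14 were lower and 0 higher, and 8 on all 3 scales. GLC3, the glycogen branching enzyme, had 12.6, 16.2 and 26.5 RPKM in WA, against 20.3, 63.0 and 218 RPKM (-1.94 ± 0.23). GSY1, a glycogen synthase, had 15.2, 21.5 and 30.5 RPKM in WA, against 5.78, 87.3 and 259 RPKM. The PAP libraries in YPD were the low ones, so that YPD carried little of the difference (-0.39) and the alcohols most (-2.49 and -2.30). The list median was -0.34 in YPD, -1.40 in 1-butanol and -1.21 in isobutanol.

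The IL01 isobutanol replicates disagreed on GLC3, at 198 and 62.6 RPKM. Without IL01 isobutanol replicate 2 the list counted 16 lower and 1 higher, and without the 3 libraries of low share in genes 7 lower. Of the 14 lower members 7 differed from both strains. Among 24 general stress genes 11 were lower and 3 higher, 7 and 3 on all 3 scales, and 6 and 3 without the 3 libraries of low share in genes. HSP12 was listed at 0 in 4 of the 6 WA libraries, at 1.06 RPKM in the highest, and at 1.08, 3.71 and 167 RPKM in PAP and IL01. It passed the filter on low values only through the other strains, so a lower value was built into its selection. TMA10 had 223 to 303 RPKM in WA, against 392 to 1270 RPKM. NCE102, of a plasma membrane domain that senses sphingolipid, was higher (2.25 ± 0.18). Of 31 chaperone genes 10 were lower and 1 higher (23.2% and 8.8% of all genes), and 5 and 1 on all 3 scales.

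The proteasome list had 18 of 32 genes lower and 0 higher, 12 on all 3 scales, with a median of -0.48, which is 0.26 below that of all genes. Without the 3 libraries of low share in genes 14 were lower. PRE10, a core subunit, had 80.1, 118 and 127 RPKM in WA, against 130, 196 and 251 RPKM, and RPT4, a subunit of the cap, had 74.3, 84.3 and 98.4 RPKM, against 108, 141 and 177 RPKM. Neither overlapped. RPN4, the activator gene, averaged 143 RPKM in WA, against 238 in PAP and 281 in IL01. Its site GGTGGCAAA (TTTGCCACC on the other strand) stood before 27 of the 32 genes and 16 of the 18 called, against 1.74% of all promoters. Among all genes called lower the share was 2.65%, and among those called higher 0.64%.
PRE10 (chrXV:1018852-1018888, - strand): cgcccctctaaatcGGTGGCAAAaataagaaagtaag
RPT4 (chrXV:813798-813834, - strand, element on the other strand): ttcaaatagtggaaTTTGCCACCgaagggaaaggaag

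Of 139 cytosolic ribosomal protein genes 3 were higher and 3 lower, and of 50 ribosome biogenesis genes 5 and 1. Without the 3 libraries of low share in genes, 2 ribosomal protein genes were higher and 1 lower, and the ribosome biogenesis list turned to 1 higher and 6 lower. HMRA1, a mating-type gene, averaged 26.5 RPKM in WA, against 25.7 in PAP and 26.4 in IL01, and SST2, of the pheromone response, was called on the centred and quantile scales only.

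Whether the WA difference itself changed between media was tested jointly over the 3 media. The test called 28 of 5696 genes (0.492%), and 586 had an unadjusted p under 0.05. STR3, a cystathionine beta-lyase gene, differed by 3.32 in YPD, -1.57 in 1-butanol and 0.10 in isobutanol (adjusted p = 2.4e-06 in limma). In YPD STR3 had 26.3 and 28.2 RPKM in WA, against 0.689 to 5.01 RPKM in the others, and in 1-butanol 12.7 and 12.8, against 27.1 to 56.7.

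TPO1, a polyamine exporter gene, differed by -2.99 in YPD, -0.42 in 1-butanol and 0.75 in isobutanol, SAM3, the S-adenosylmethionine permease, by 2.14, -0.83 and 0.10, and PAU8 by -1.74, 1.36 and 3.97. PAU8 had 360 and 484 RPKM in WA in isobutanol, against 4.58 to 91.7 in the others. SSU1 differed by -0.38, -3.0 and -1.72. Of the 28 genes 13 were also called across media with one sign. The count fell to 3 without the 3 libraries of low share in genes and ran from 4 to 82 with single libraries left out.

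With oxygen, the same strains and media gave 18 libraries, compared here only to see which anaerobic differences stood apart. Of the 494 genes called higher without oxygen that had an aerobic value, 313 (63.4%) were also higher with oxygen and 10 lower, where 17.4% and 10.3% of all 5703 genes were. Of the 1314 called lower, 291 (22.1%) were lower and 92 higher with oxygen. A change with oxygen was called for 1018 genes (17.9%), 198 more positive and 820 more negative without oxygen, at a median of -0.23, while quantile normalization gave 612 and 559 and centring 667 and 556.

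**Figure D5:**
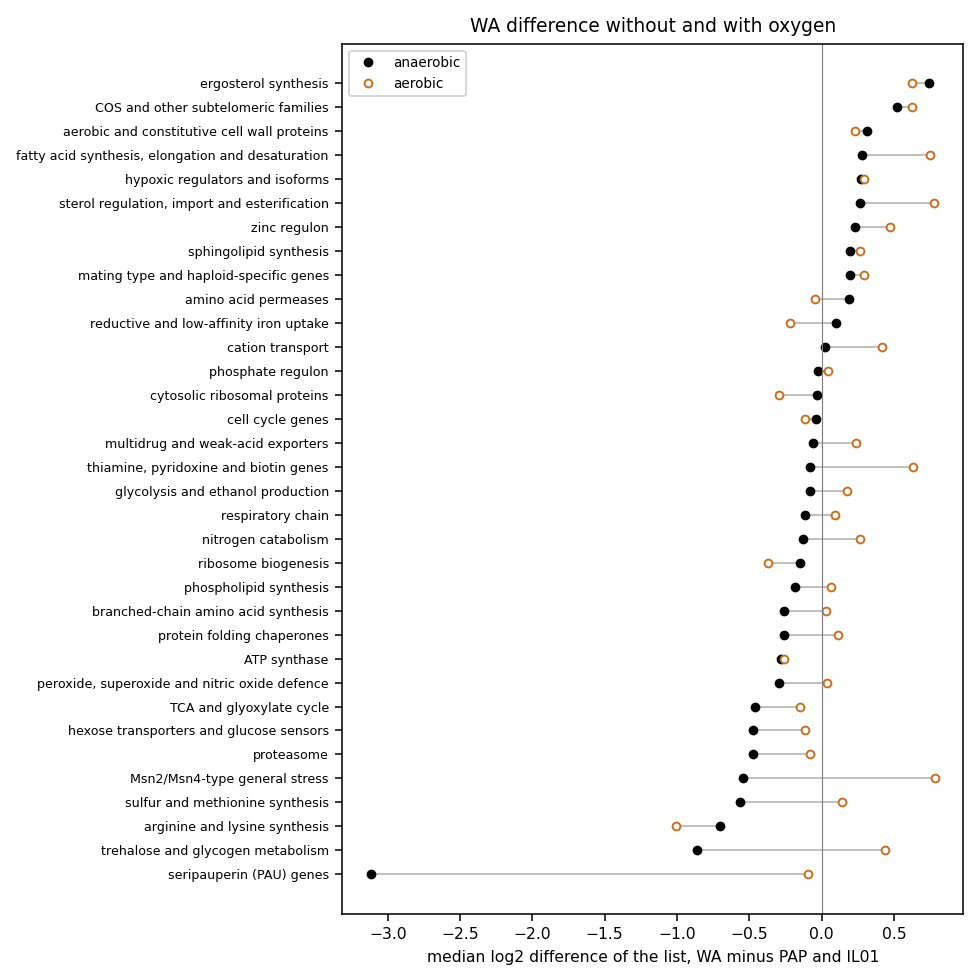
Median WA difference of each gene list with at least 10 tested members on the log2 scale, without oxygen (filled) and with oxygen (open). The PAU family moves furthest (-3.12 and -0.10), trehalose and glycogen genes and general stress genes change side (-0.86 and 0.44, -0.54 and 0.78), and ergosterol genes stay to the right in both (0.75 and 0.63).

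With oxygen PAU24 had 0, 0 and 0.322 RPKM in WA, against 0, 1.20 and 3.46 RPKM in PAP and IL01, and PAU3 0.615, 1.77 and 2.02 against 0.239, 1.40 and 21.8 RPKM. The change with oxygen was -9.49 ± 0.49 for PAU24, -7.65 ± 0.42 for PAU3 and -5.89 ± 0.35 for PAU9 on the log2 scale, and 14 of the 17 tested members changed in that direction. PAU24 and PAU9 were at or near 0 in WA in both states, so their values follow the level in PAP and IL01 and the pseudocount.

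ENB1 was at 0 to 0.0634 RPKM in WA with oxygen too, against 78.4, 219 and 425 RPKM in PAP and IL01, and the fitted change was 3.37 ± 0.15 (adjusted p = 3.0e-13 in limma). As WA was at the floor in both states, this value follows the level in PAP and IL01 and is no bound. FIT3 reversed: it had 9.41, 52.4 and 108 RPKM in WA with oxygen, against 32.0, 886 and 2395 RPKM. FIT2, which was not called without oxygen, was -5.86 ± 0.24 with it. All 6 siderophore genes with a call for the change were more positive without oxygen.

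HXK1, a hexokinase gene, had 150, 226 and 584 RPKM in WA without oxygen, against 95.6, 789 and 2516 RPKM, and 14.2, 38.8 and 56.9 RPKM with oxygen, against 1.5, 4.01 and 17.6 RPKM. WA was therefore lower without and higher with oxygen, a change of -4.15 ± 0.24. GLC3 and GPH1 changed in the same manner (-3.58 ± 0.28 and -3.36 ± 0.40), and 16 of the 20 trehalose and glycogen genes became more negative. In GLC3 the aerobic levels were 5.76 to 10.6 RPKM in WA, against 0.395 to 4.29.

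SUL2 was at 1.53 to 2.40 RPKM in WA with oxygen and at 0.876 to 2.74 in the others, and HIS4 at 75.3 to 166 and 33.4 to 309 RPKM, so neither separated the strains there, while ARG1 did (30.2 to 56.1 RPKM in WA, against 112 to 654). ERG5 was higher in WA in both states, at 586, 811 and 841 RPKM with oxygen, against 240, 332 and 440 RPKM. Its aerobic difference of 1.16 ± 0.11 was below the anaerobic one by 2.24 ± 0.16. OPT2 differed by 4.57 ± 0.16 with oxygen, and the change of 0.13 ± 0.22 was not called.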

How the data were processed

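RNA was ribosome-depleted and sequenced as single-end stranded libraries. The authors aligned the reads to S288c (BWA), assigned them to genes (HTSeq) and deposited RPKM on a log2 scale. A 0 there marks a gene without reads. Here 0 was read as RPKM 0, values were taken to log2(RPKM + 0.5), genes with a mean of at least 1 RPKM over the 18 libraries were kept, and limma 3.58.1 (R 4.3.3) was fitted with 9 strain-by-medium means and the replicate number as a block, with Benjamini-Hochberg adjustment over all genes. The fit was tested on simulated data. Of 6713 identifiers, 6022 matched RefSeq names. Fold changes of low genes are understated by the pseudocount.

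Named genes were those with the largest differences, those listed at or near 0 on one side, and members of gene lists, as written in the design. ARN1, DOG1, DOG2, ERG1, ERG2, ERG9, ERG11, ERG20, ERG25, FIT2, GPH1, HIS4, HMG2, LYS4, LYS5, LYS9, LYS20, MHT1, OLE1, ORT1, PAH1, SAM2, SIT1, SRB2, SUL1, TIR1, TIR3, TIR4, YPR195C and the less abundant PAU genes lie outside that rule and were chosen after their values were seen. The members and lists were chosen with earlier results of these data known. Some results are not reported here.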

Additional observations from a re-analysis of the deposited data

Results flagged for a closer look

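ENB1 had 0.0587 RPKM in WA YPD replicate 2 and was at 0 in the 5 other WA libraries. Q0297 had 1.37 RPKM in WA isobutanol replicate 2 and was at 0 in the 5 others. Each was flagged as a library apart from the rest of its group, and 24 genes were examined. Such a mark arises by chance in about 1 of 20 groups. That rate does not hold here, since any read stands out where the other libraries are at 0. The ENB1 value was 1 read.

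The WA difference changed between media for STR3 (adjusted p = 2.4e-06 in limma), TPO1 (9.3e-06), SAM3 (0.00039), PAU8 (0.00072) and SSU1 (0.0015). It changed with oxygen by -9.49 for PAU24, -7.65 for PAU3, 3.37 for ENB1, -5.89 for PAU9 and -4.15 for HXK1 on the log2 scale. PAU24, PAU9 and ENB1 were at or near 0 in WA in both states, so these 3 values follow PAP and IL01 and the pseudocount.

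In the anaerobic ethanol libraries labelled WA, which were used only in an alternative fit, CSS3 had 13.8 and 17.2 RPKM and ARN2 6.12 and 7.58 RPKM, where the 6 WA libraries compared were at 0. Why these libraries differ was not tested.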

How the results depend on the processing

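Each count was recomputed with single libraries left out and with other scalings, filters, pseudocounts and fits. Of the 1821 calls, 1045 were kept with every one of the 18 libraries left out in turn, and 1199 with the ethanol libraries added, where 1365 were called. Of 179 called genes followed singly, 88 kept the call in every alternative. Centring gave 1114 higher and 809 lower, and quantile normalization 1015 higher. In YPD the count was 661 when centred and 595 with quantile normalization. The change between media was called for 8 genes when centred, 12 with quantile normalization and 3 without the 3 libraries of low share in genes, an alternative chosen after seeing the data, which also left 259 in 1-butanol and 333 in isobutanol. With a replicate block for each medium the change between media was called for 18 genes and the total was 1869, against 1731 with no replicate block. Over 36 pairs of groups the deviations of same-numbered samples correlated at -0.35 to 0.78 (median 0.14, 20 over 0.1), so the numbers do not all pair the samples. With single libraries left out the total ran from 1241 to 2341, the higher calls from 326 to 590, the lower from 825 to 1841, the genes apart from both strains from 501 to 1128, the change between media from 4 to 82, the change with oxygen from 778 to 1219, and the calls in 1-butanol from 222 to 988, in YPD from 143 to 463 and in isobutanol from 224 to 869. The lowest were 326 without WA 1-butanol replicate 2, 825 without WA 1-butanol replicate 1 and 501 without WA YPD replicate 2. HMRA1, not called at 0.01, was -0.069 with the ethanol libraries added and ran from -0.091 to 0.11 with single libraries left out. The causes of these changes were not tested.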
